A study of Mus musculus with 2 samples.

Results

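The genes described here are 51 mitosis and G2/M genes, found by symbol in a single-cell UMI table of 22032 genes, and all 51 were present. The rule lists them by gene name and uses no measured value. The members and the other gene lists were, however, chosen with earlier results of these data known. They comprise 7 cyclins, Cdk1 and their partners, 6 mitotic kinases and checkpoint genes, 4 genes of the anaphase-promoting complex and ubiquitin transfer, 8 of the centromere, kinetochore and passenger complex, 4 spindle kinesins, 11 other spindle and microtubule genes, 2 of cytokinesis and 9 of chromosome structure and chromatin. The study profiled flow-sorted DN1 cells, the earliest CD4- CD8- fraction of the thymus, from embryonic thymus of 5x polychromILC mice by 10x 3' sequencing. It holds 1 library labelled E15.5_DN1 and 1 labelled E19.5_DN1, after the embryonic day, and the same reporter strain, tissue and cell type are given for both. Barcodes in the table carry suffix 1 or suffix 2, and no label ties a suffix to a stage, so values are given within each suffix and not by stage. The labels describe a lysis that yields nuclei, so the input may have been nuclei or cells. With 1 library per suffix there are no replicates and no test of a difference, and the 95% intervals given cover counting error only.

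Mitosis and G2/M genes are switched on late in the cell cycle. Cyclins A and B activate Cdk1, which drives the cell into mitosis, Plk1 and the Aurora kinases build the spindle, and the anaphase-promoting complex with Cdc20 then destroys cyclin B and separates the chromosomes. Early T-cell progenitors and fetal innate lymphoid cells are known to divide in the embryonic thymus. The promoters of many such genes are known to hold CCAAT boxes, bound by the factor NF-Y, and a CHR element, bound by the MuvB complexes that repress them in resting cells and activate them in G2.

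Promoter sequences from RefSeq on build GRCm38.p6 were found for 44 of the 51 members. The 7 members with no entry were Ccna2, Cdc25c, Aurkb, Tpx2, Dlgap5, Smc4 and Cdca2. The 150 bases before the start site are shown for 10 members, 5′ to 3′ on the gene's strand, because these genes recur as landmarks below, with Ctcf as a member that hardly moved with the rest. Capitals mark matches on both strands. The CCAAT box is spelled CCAAT and on the other strand it reads ATTGG. The CHR was sought as TTTGAA, which on the other strand reads TTCAAA. Its second form is the palindrome TTTAAA.
Cdk1: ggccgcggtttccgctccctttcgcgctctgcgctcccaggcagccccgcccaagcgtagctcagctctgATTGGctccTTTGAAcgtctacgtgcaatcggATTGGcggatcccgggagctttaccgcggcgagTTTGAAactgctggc
Ccnb1: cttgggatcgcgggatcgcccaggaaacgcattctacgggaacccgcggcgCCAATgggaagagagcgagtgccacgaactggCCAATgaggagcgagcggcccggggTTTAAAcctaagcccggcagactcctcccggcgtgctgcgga
Plk1: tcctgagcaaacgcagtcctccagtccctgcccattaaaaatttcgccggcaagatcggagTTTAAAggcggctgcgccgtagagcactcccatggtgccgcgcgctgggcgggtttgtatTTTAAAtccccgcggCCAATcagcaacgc
Cdc20: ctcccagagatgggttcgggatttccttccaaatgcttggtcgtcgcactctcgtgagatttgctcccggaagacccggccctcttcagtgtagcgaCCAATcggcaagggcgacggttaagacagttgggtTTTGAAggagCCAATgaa
Ube2c: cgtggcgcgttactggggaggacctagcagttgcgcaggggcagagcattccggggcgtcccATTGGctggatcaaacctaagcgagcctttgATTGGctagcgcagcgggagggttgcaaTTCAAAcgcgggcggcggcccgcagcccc
Top2a: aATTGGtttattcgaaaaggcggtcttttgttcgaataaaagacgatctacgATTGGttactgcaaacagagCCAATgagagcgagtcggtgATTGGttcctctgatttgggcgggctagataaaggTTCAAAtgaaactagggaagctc
Mki67: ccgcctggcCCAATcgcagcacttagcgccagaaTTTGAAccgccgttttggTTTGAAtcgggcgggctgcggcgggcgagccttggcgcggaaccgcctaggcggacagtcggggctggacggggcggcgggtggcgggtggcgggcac
Cks1b: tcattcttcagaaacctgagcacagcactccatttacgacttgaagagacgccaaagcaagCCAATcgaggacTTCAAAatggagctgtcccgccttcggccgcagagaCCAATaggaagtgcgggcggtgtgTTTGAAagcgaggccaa
Cks2: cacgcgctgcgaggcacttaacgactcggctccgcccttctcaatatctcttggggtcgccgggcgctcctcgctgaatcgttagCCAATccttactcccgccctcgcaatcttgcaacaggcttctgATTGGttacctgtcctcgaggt
Ctcf: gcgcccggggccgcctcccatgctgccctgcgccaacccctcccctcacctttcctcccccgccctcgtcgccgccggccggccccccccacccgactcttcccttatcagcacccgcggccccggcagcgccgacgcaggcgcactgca
The Cdk1 window is chr10:69352913-69353062 on the minus strand, that of Ccnb1 is chr13:100786487-100786636 (minus) and that of Plk1 is chr7:122159285-122159434 (plus). The Cdc20 window is chr4:118437344-118437493 (minus), that of Ube2c is chr2:164769779-164769928 (plus) and that of Top2a is chr11:99024190-99024339 (minus). The Mki67 window is chr7:135716380-135716529 (minus), that of Cks1b is chr3:89418292-89418441 (minus), that of Cks2 is chr13:51645082-51645231 (plus) and that of Ctcf is chr8:105636388-105636537 (plus). The CCAAT boxes of Cdk1 began 80 and 48 bases before the start site and its CHR matches 71 and 15 bases before it, and Top2a held 4 CCAAT boxes with a CHR match 23 bases before the start.

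Among the 44 members with a sequence, 32 (72.7%) held a CCAAT box in these 150 bases, against 25.3% of all 27025 promoters. A CHR of either form was present in 17 members (38.6%) against 14.9% of all promoters, with TTTGAA in 13 members (29.5%, against 9.24%) and TTTAAA in 4 (9.09%, against 6.79%). Both a CCAAT box and a CHR were present in 16 members (36.4%), among them Cdk1, Ccnb1, Plk1, Cdc20, Ube2c, Top2a and Mki67, against 3.74% of all promoters. At least 2 CCAAT boxes were found in 23 members (52.3%) against 6.41% of all promoters. Neither motif was found in 11 members, namely Anln, Birc5, Ctcf, G2e3, Hjurp, Kif20b, Ndc80, Nuf2, Nusap1, Rangap1 and Tacc3. Of 33 S phase genes with a sequence, 21 held a CCAAT box but 5 held a CHR and 2 held both. These matches are letters in a window and are given as a description.

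The table holds 6057 barcodes, 2182 of suffix 1 and 3875 of suffix 2, of which 1916 and 3224 were kept, with 713 to 113167 UMIs each (a UMI marks 1 captured transcript). Each barcode was thinned to 7000 UMIs, so that levels, given as UMIs per 1000000 thinned UMIs (CPM), and counts of detected members compare at equal depth. Barcodes were sorted into 5 gates by at least 2 UMIs of both genes of a pair, Spi1 and Bcl11a for the progenitor gate, Icos and Rora for ILC2, Xcl1 and Nkg7 for NK/ILC1, Cd3d and Sox13 for gamma-delta T, and Cd3g and Myb for DN2/DN3. No gate gene is a member. At depth, suffix 1 gave 218 progenitor, 202 ILC2, 693 NK/ILC1, 4 gamma-delta T and 179 DN2/DN3 barcodes, and suffix 2 gave 548, 765, 464, 63 and 137. The 4 gamma-delta T barcodes of suffix 1 entered no comparison between gates. In suffix 2 the summed markers of each gate's own list were highest in that gate: 788 CPM of progenitor markers, 1868 of ILC2, 12546 of NK/ILC1, 2220 of gamma-delta T and 1438 of DN2/DN3 markers. The DN2/DN3 gates also held NK/ILC1 markers, mainly Gzma, summing to 2832 CPM in suffix 1 and 1894 in suffix 2. The suffix 2 gamma-delta T gate held 3215, of which Gzma made up 3190, with 8 of the 12 NK/ILC1 markers at 0. The DN2/DN3 gate of suffix 1 held 1238 CPM of its own markers. The ILC2 gate of suffix 1 held 983 CPM of ILC2 markers, led by Il7r, below its 1122 CPM of NK/ILC1 markers, led by Gzma, and its 1134 CPM of gamma-delta T markers, led by Cd163l1. In suffix 1 a cluster of 549 barcodes, all with Gzma, had 2 or more UMIs of the epithelial keratins Krt8 and Krt18 in 28.4%. Barcodes with those keratin UMIs were left out throughout, which left 281 barcodes of that cluster at depth in the suffix 1 NK/ILC1 gate, so values of that gate are given with and without it. There were 25 barcode sequences found with both suffixes.

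Members were detected together in a minority of barcodes in most gates of suffix 2, and in about every other barcode of its DN2/DN3 gate. In suffix 1 it was about every other barcode in each compared gate without the keratin cluster. A barcode was set apart when at least 20 of the 51 members had a UMI. In suffix 1 this held for 50.9% of progenitor barcodes (44.1 to 57.7), 50.5% of ILC2 (43.4 to 57.6) and 57.0% of DN2/DN3 barcodes (49.4 to 64.3). In the suffix 1 NK/ILC1 gate it held for 40.7% (37.0 to 44.5) with the keratin cluster and 54.9% (49.9 to 59.7) without it. The 4 shares without that cluster overlapped in their intervals. In suffix 2 the share was 20.9% of NK/ILC1 barcodes (17.3 to 24.9), 23.7% of ILC2 (20.7 to 26.8), 30.3% of progenitor (26.5 to 34.3), 41.3% of gamma-delta T (29.0 to 54.4) and 51.1% of DN2/DN3 barcodes (42.4 to 59.7). NK/ILC1 and ILC2 did not differ beyond their intervals, and neither did gamma-delta T and DN2/DN3. The intervals of gamma-delta T and progenitor overlapped too, as did, narrowly, those of progenitor and ILC2. DN2/DN3 stood above progenitor, and progenitor above NK/ILC1, in each of the 15 settings tried. Progenitor stood above ILC2 in 14 of them. The smallest lead of progenitor over NK/ILC1 was 1.22 percentage points. ILC2 minus NK/ILC1 turned to -4.94 points where the gates read thinned UMIs. Barcodes of suffix 2 next to the line, with 18 to 21 members, made up 2.61% of ILC2, 3.66% of NK/ILC1, 8.76% of DN2/DN3, 9.49% of progenitor and 9.52% of gamma-delta T barcodes.

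**Figure D1:**
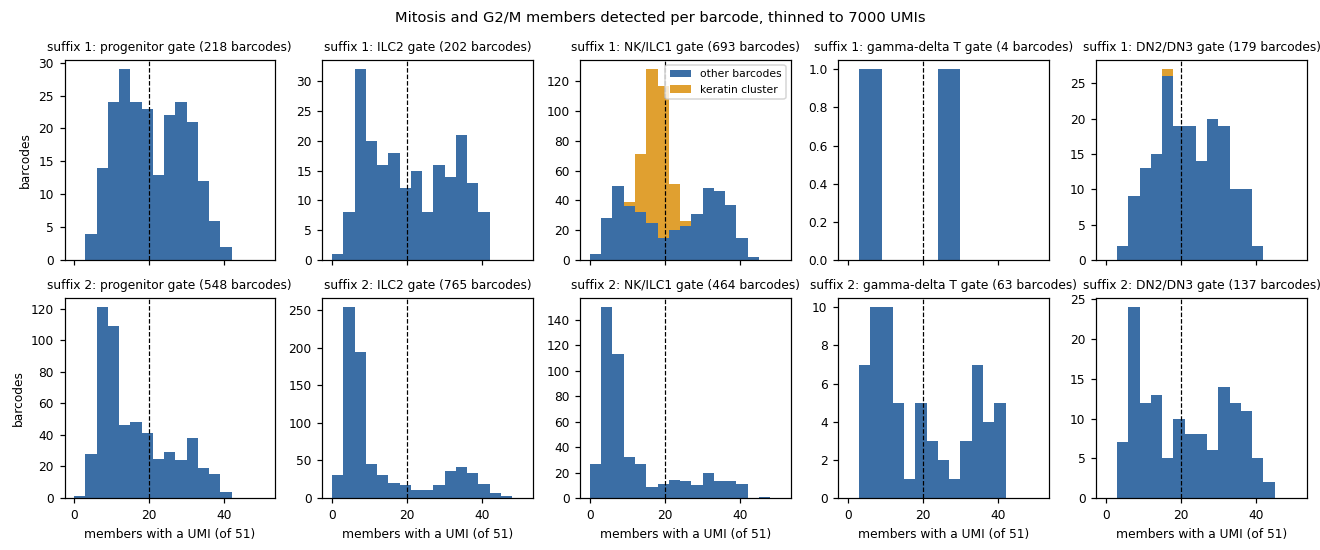
Number of the 51 mitosis and G2/M members with a UMI (x axis) against the number of barcodes (y axis) for each gate and suffix, each barcode thinned to 7000 UMIs, with the line at 20 members dashed and the suffix 1 keratin cluster in orange. In suffix 2 most ILC2 and NK/ILC1 barcodes lie below the line, 23.7% and 20.9% above it, while DN2/DN3 barcodes divide about evenly.

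The summed members showed the same spread. The median barcode of suffix 2 held 11 member UMIs in the NK/ILC1 gate, 12 in ILC2, 27 in progenitor, 36 in gamma-delta T and 54 in DN2/DN3. In suffix 1 the medians were 47 in progenitor, 57 in ILC2, 49 in DN2/DN3 and 46 in NK/ILC1, or 60 without the keratin cluster. Barcodes with many members also had more UMIs before thinning. In the suffix 2 ILC2 gate the median was 19860 raw UMIs at 20 or more members and 11251.5 below, and in the progenitor gate 43148 and 29185. Because the gates read raw UMIs, deeper barcodes pass more easily. When the gates read thinned UMIs instead, the suffix 2 shares were 21.3% in progenitor, 15.2% in ILC2 and 25.6% in gamma-delta T barcodes, and the suffix 1 ILC2 share was 37.3%.

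Barcodes below 20 members were not alike between gates in their S phase genes. In suffix 2, 54.01% of progenitor barcodes had under 20 members but 15 or more UMIs of the 46 S phase genes, such as the Mcm helicase subunits and Pcna, against 21.3% of ILC2 and 17.5% of NK/ILC1 barcodes. Low values of both made up 15.7% of progenitor, 14.6% of DN2/DN3 and 23.8% of gamma-delta T barcodes, but 55.0% of ILC2 and 61.6% of NK/ILC1 barcodes. In suffix 1, without the keratin cluster, low values of both made up 3.21% of progenitor, 7.92% of ILC2, 10.4% of NK/ILC1 and 5.06% of DN2/DN3 barcodes.

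Levels of single members spanned a wide range. A 3' UMI is counted once per captured transcript whatever its length, so levels are compared between genes on that scale. Hmgb2, a chromatin protein that bends DNA, was the most abundant member. In suffix 1 its level was 1495 CPM in progenitor, 2803 in ILC2, 1724 in DN2/DN3 and 3047 in NK/ILC1 barcodes without the keratin cluster (2320 with it). In suffix 2 its level was 1413 CPM in progenitor, 1916 in ILC2, 1634 in NK/ILC1, 2522 in gamma-delta T and 2481 in DN2/DN3 barcodes. Progenitor barcodes were the lowest in both suffixes. Tubb4b, a beta-tubulin, ran the other way in suffix 2, at 510 CPM in progenitor against 301 in ILC2 and 282 in NK/ILC1 barcodes, with 435 in gamma-delta T and 570 in DN2/DN3. In suffix 1 Tubb4b was between 694 CPM in ILC2 and 767 in NK/ILC1 barcodes without the keratin cluster. Ube2c, the ubiquitin-conjugating enzyme of the anaphase-promoting complex, was at 187 CPM in suffix 2 progenitor, 281 in ILC2, 169 in NK/ILC1, 565 in gamma-delta T and 563 in DN2/DN3 barcodes. In suffix 1 Ube2c was at 332 CPM in progenitor, 583 in ILC2, 531 in NK/ILC1 and 376 in DN2/DN3 barcodes.

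**Figure D2:**
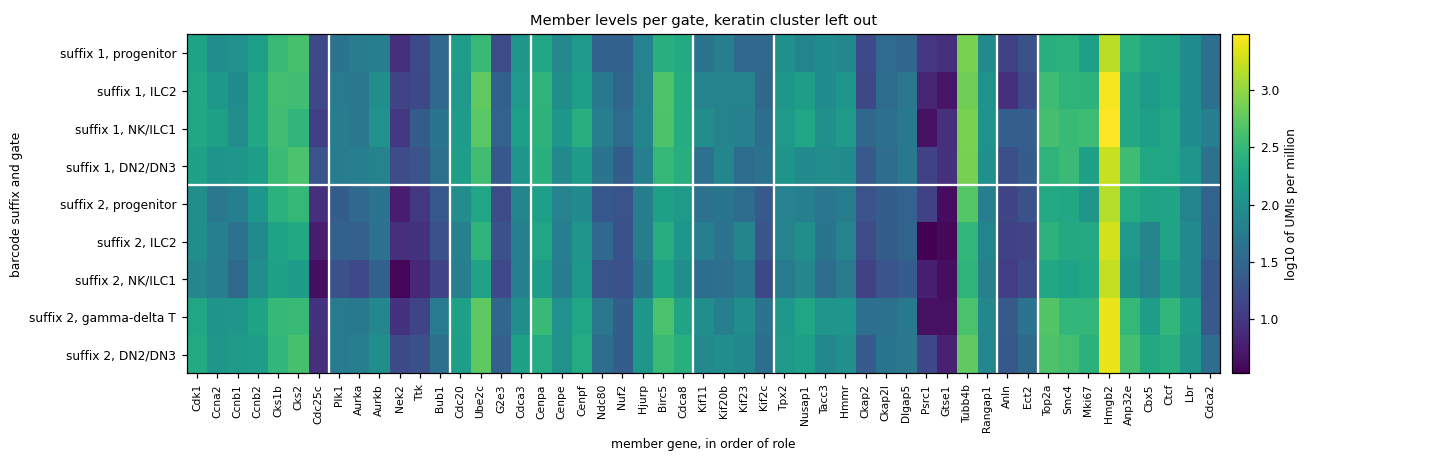
Level of each of the 51 members (x axis, in order of role, white lines between roles) in each gate and suffix (y axis), as colour on a log10 scale of CPM, with the keratin cluster left out. Hmgb2 and Tubb4b are bright in every row, Hmgb2 at 1413 to 3047 CPM, and Cdc25c, Nek2, Psrc1 and Gtse1 stay dark.

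Cdk1 itself was at 172 CPM in progenitor, 198 in ILC2, 198 in NK/ILC1 and 165 in DN2/DN3 barcodes of suffix 1, without the keratin cluster. In suffix 2 Cdk1 was at 97.2 CPM in progenitor (87.6 to 108), 100 in ILC2, 78.5 in NK/ILC1 (69.2 to 88.8), 188 in gamma-delta T and 217 in DN2/DN3 barcodes (188 to 248). Gamma-delta T and DN2/DN3 barcodes were the high ones, and progenitor and ILC2 did not differ beyond counting error. Ccnb1, cyclin B1, ranged in suffix 2 from 35.4 CPM in NK/ILC1 and 42.2 in ILC2 through 63.3 in progenitor to 122 in gamma-delta T and 140 in DN2/DN3 barcodes. Plk1, the Polo kinase, ranged from 18.2 CPM in NK/ILC1 to 57.4 in DN2/DN3 barcodes of suffix 2, and Cdc20 from 61.9 to 166 with its highest value in gamma-delta T barcodes. Cks2, a small subunit that binds Cdk1, was at 143 CPM in NK/ILC1, 209 in ILC2, 310 in progenitor, 342 in gamma-delta T and 420 in DN2/DN3 barcodes of suffix 2. Its paralog Cks1b was at 164, 176, 262, 320 and 309 CPM in the same order of gates. A UMI of Cks1b was present in 78.1% of suffix 2 progenitor but 40.4% of ILC2 barcodes.

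Mki67, the Ki-67 protein that coats mitotic chromosomes, and Top2a, which untangles DNA strands, were lowest in the progenitor gate or close to it. Mki67 was at 124 CPM in progenitor, 192 in NK/ILC1, 217 in ILC2, 269 in DN2/DN3 and 304 in gamma-delta T barcodes of suffix 2. In suffix 1 Mki67 was at 155 CPM in progenitor, 167 in DN2/DN3, 273 in ILC2 and 365 in NK/ILC1 barcodes without the keratin cluster (235 with it). Top2a was at 215 CPM in progenitor, 199 in NK/ILC1, 272 in ILC2, 449 in DN2/DN3 and 499 in gamma-delta T barcodes of suffix 2. In suffix 1 Top2a was at 251 CPM in progenitor, 279 in DN2/DN3, 368 in ILC2 and 411 in NK/ILC1 barcodes without the keratin cluster (262 with it). Aurkb, the kinase of the chromosomal passenger complex, was at 27.7 CPM in NK/ILC1, 43.3 in ILC2, 44.6 in progenitor, 79.4 in gamma-delta T and 100 in DN2/DN3 barcodes of suffix 2. Mki67 and Aurkb thus ranked the ILC2, NK/ILC1 and progenitor gates of suffix 2 differently.

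Ratios between gates were formed for members with at least 20 thinned UMIs over both gates, and a member counted as higher or lower past a 2-fold ratio. DN2/DN3 barcodes of suffix 2 stood above progenitor barcodes across the list. Of 51 members, 15 were over 2-fold higher and 0 over 2-fold lower, where 6.17% of all 9095 genes were over 2-fold higher and 7.78% lower. The median member log2 ratio was 0.82, against 0.02 for all genes, and 50 of 51 members lay above 0. Summed levels were 10127 and 5845 CPM (log2 0.79, 0.76 to 0.83). Ube2c was the highest at 563 against 187 CPM (log2 1.59, 1.43 to 1.76), followed by Nek2, a centrosome kinase, at 15.6 against 5.74 CPM (1.45, 0.40 to 2.46) and the kinetochore protein Cenpf at 224 against 89.4 CPM (1.33, 1.07 to 1.58). The 15 members also included Cdk1, Ccna2, Ccnb1, Plk1, Aurkb, Birc5, Top2a and Mki67. At the other end Cdc25c, the phosphatase that activates Cdk1, was at 8.34 CPM in both, and Tubb4b and Psrc1 had log2 ratios of 0.16.

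The mitotic kinases had the highest role median in that comparison, at a log2 ratio of 1.06 with 3 of 6 over 2-fold, and the cyclins and Cdk1 partners the lowest at 0.44 with 3 of 7. Of 51 G2/M genes outside the members, fixed as a separate list, 14 were over 2-fold higher and 0 lower (median 0.76), and of 46 S phase genes 2 were higher and 0 lower (median 0.37). DN2/DN3 barcodes also differed from progenitor in the NK/ILC1 marker Gzma (1754 against 23.7 CPM) and in alpha-beta thymocyte markers (559 against 45.1 CPM). The NK/ILC1 list summed to 1894 against 536 CPM through Gzma. Its markers Tyrobp (66.7 against 376 CPM) and Fcer1g (55.3 against 110 CPM) were lower in DN2/DN3 barcodes. The part of these markers in the result was not tested. The count of 15 was 7 with unthinned sums, 9 where gate genes needed 3 raw UMIs and 27 where barcodes passing several gates were left out. Of the 155 barcodes in the suffix 2 DN2/DN3 gate before thinning, 44 passed several gates. Its median was 41450 raw UMIs at 20 or more members and 17032 below.

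Gamma-delta T barcodes of suffix 2, 63 in number, also stood above progenitor barcodes. Of 50 members with enough UMIs, 18 were over 2-fold higher and 1 lower, where 10.7% of all genes were higher and 15.3% lower. The median member log2 ratio was 0.85 against -0.04 for all genes, and summed levels were 9975 and 5845 CPM (log2 0.77, 0.72 to 0.82). Ube2c was highest at 565 against 187 CPM (1.60, 1.38 to 1.81), then Nusap1, a spindle microtubule bundler, at 188 against 63.9 CPM (1.56, 1.18 to 1.92) and Birc5, survivin of the passenger complex, at 431 against 161 CPM (1.42, 1.18 to 1.66). Centromere and kinetochore genes were over 2-fold higher in 5 of 8 and kinesins in 3 of 4. The member over 2-fold lower was the spindle gene Psrc1, at 4.54 against 13.03 CPM with an interval of -4.61 to 0.41 on the log2 scale, and Cdca2 and Tubb4b followed at log2 -0.42 and -0.23. The number of members past 2-fold in either direction was 19, and was 10 where gate genes needed 3 raw UMIs and 6 where the gates read thinned UMIs. Of the 64 barcodes in that gate before thinning, 21 passed several gates.

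ILC2 and progenitor barcodes of suffix 2 had nearly the same summed member level, 6165 and 5845 CPM (log2 0.08, 0.05 to 0.10). Hmgb2 made up 1916 and 1413 CPM of these sums, a gap larger than that between the sums. The other members together were thus lower in ILC2 barcodes. Few members were past 2-fold, and single members differed in both directions. Of 51 members 1 was over 2-fold higher and 2 lower, where 13.5% of all genes were higher and 15.9% lower, and the median member log2 ratio was -0.04 against -0.13 for all genes. Kif23, a kinesin of the central spindle, was at 76.2 against 37.3 CPM (1.03, 0.75 to 1.32), Mki67 at 217 against 124 CPM (0.81, 0.65 to 0.97) and the kinetochore protein Ndc80 at 34.9 against 22.2 CPM (0.66, 0.28 to 1.04). Psrc1 was at 3.36 against 13.03 CPM (-1.96, -2.82 to -1.15), Cbx5, heterochromatin protein 1 alpha, at 75.4 against 169 CPM (-1.16, -1.35 to -0.98) and Tubb4b at 301 against 510 CPM (-0.76, -0.85 to -0.66). The cyclins and Cdk1 partners had a median of -0.53 and the spindle kinesins one of 0.21. S phase genes were over 2-fold lower in 12 of 46 and higher in 0 (median -0.73). Quiescence and anti-proliferative genes were over 2-fold higher in 10 of 16 and lower in 2 (median 1.72), led in abundance by Btg1 at 572 against 93.1 CPM and Klf2 at 559 against 82.9 CPM. The sum turned to log2 -0.02 where gate genes needed 1 raw UMI and to -0.16 where the gates read thinned UMIs.

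NK/ILC1 barcodes of suffix 2 had 5109 CPM of members against 5845 in progenitor (log2 -0.19, -0.22 to -0.17). Of 51 members 0 were over 2-fold higher and 4 lower, where 13.7% of all genes were higher and 17.4% lower, and the median was -0.27 against -0.14 for all genes. The lowest were Cbx5 at 68.0 against 169 CPM (-1.31, -1.54 to -1.09), the spindle pole kinase Aurka at 15.1 against 34.7 CPM (-1.20, -1.70 to -0.72) and Cks2 at 143 against 310 CPM (-1.12, -1.28 to -0.96). Mki67 at 192 against 124 CPM (0.64, 0.46 to 0.81), Cenpf at 126 against 89.4 CPM (0.49) and Kif23 at 52.3 against 37.3 CPM (0.49) were the highest. The sum turned to log2 0.11 at 10000 UMIs and 0.02 where the gates read thinned UMIs, so its direction is not settled. Against ILC2 barcodes, NK/ILC1 had 0 of 51 members over 2-fold higher and 1 lower, where 7.65% of all genes were higher and 9.21% lower, with a median of -0.31. The lowest were Nek2 at 3.69 against 8.40 CPM (-1.19, -2.24 to -0.24), Aurka at 15.1 against 26.9 CPM (-0.83) and Ndc80 at 19.7 against 34.9 CPM (-0.83). That sum, log2 -0.27, was 0.18 where the gates read thinned UMIs, and the Nek2 ratio was 0.80 at 4000 UMIs. The comparisons over progenitor share those barcodes, and NK/ILC1 over ILC2 shares its barcodes with both comparisons of these gates over progenitor, so the values are set side by side and not tested for overlap.

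**Figure D3:**
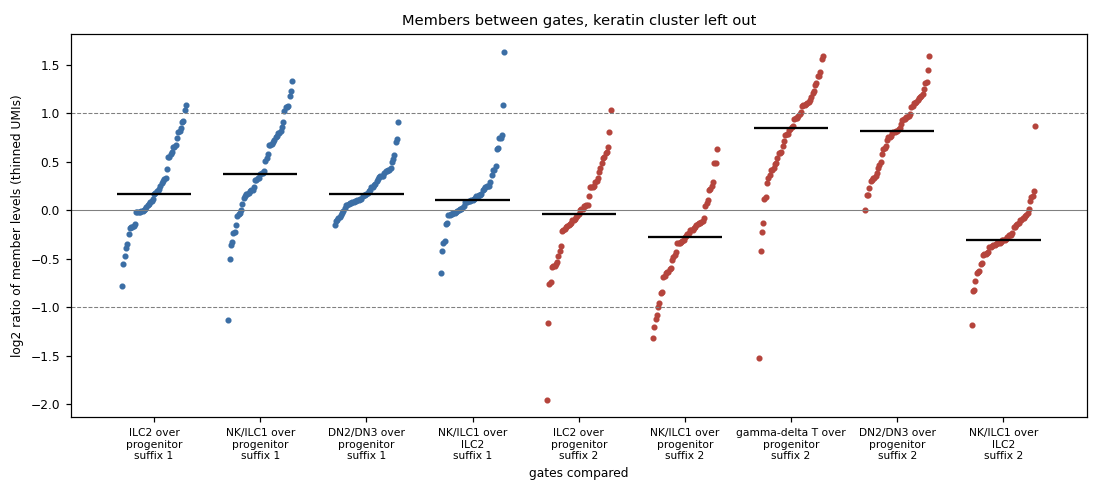
Log2 ratio of each member's level between 2 gates (y axis) for the comparisons on the x axis, members sorted by ratio, the median as a black bar and 2-fold as dashed lines, with the keratin cluster left out and suffix 1 in blue. The gamma-delta T and DN2/DN3 columns of suffix 2 lie mostly above 0 with medians of 0.85 and 0.82, and the other medians lie between -0.31 and 0.37.

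ILC2 barcodes of suffix 1 had 9972 CPM of members against 7577 in progenitor (log2 0.40, 0.36 to 0.43), with 2 of 51 over 2-fold higher and 0 lower, where 11.1% of all genes were higher and 11% lower (median 0.17). Nusap1 was at 153 against 72.1 CPM (1.08, 0.75 to 1.43), Kif23 at 71.4 against 34.7 CPM (1.04, 0.55 to 1.55) and Ndc80 at 52.3 against 27.5 CPM (0.93). Hmgb2 made up 2803 and 1495 CPM of the summed members. The separate G2/M list ran the other way in its sum, 8849 against 10045 CPM (log2 -0.18, -0.22 to -0.15), though not in its median of 0.18. Of its 50 genes with enough UMIs, 2 were over 2-fold higher and 2 lower. S phase genes were over 2-fold higher in 0 of 46 and lower in 1 (median -0.01). That ILC2 gate held more NK/ILC1 and gamma-delta T markers than ILC2 markers, as given above, and their part in the result was not tested. Gtse1, Anln and Psrc1 had the lowest ratios, -0.78, -0.55 and -0.47, each with an interval that spans 0. Of the 180 DN2/DN3 barcodes of suffix 1 before thinning, 55 passed several gates. DN2/DN3 barcodes of suffix 1 had 8485 CPM (log2 0.16, 0.13 to 0.20) and 0 members past 2-fold in either direction, where 3.44% of all genes were higher and 3.75% lower. The members nearest to 2-fold without the keratin cluster were Nek2 at 16.0 against 8.52 CPM (0.91, -0.16 to 2.04) and Ndc80 at 45.7 against 27.5 CPM (0.73, 0.13 to 1.34). Progenitor barcodes of suffix 1 also held 901 CPM of erythroid markers against 1.41 CPM in ILC2, and in suffix 2 587 against 208 CPM, and their part in these results was not tested.

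The suffix 1 NK/ILC1 gate depended on the keratin cluster. With it, summed members were 8941 CPM against 7577 in progenitor (log2 0.24, 0.21 to 0.27), of which Hmgb2 made up 2320 and 1495 CPM. Of 51 members 0 were past 2-fold, where 9.94% of all genes were higher and 15.8% lower. The separate G2/M list summed to 9653 against 10045 CPM (log2 -0.06, -0.08 to -0.03), with a median of 0.06 and 2 genes over 2-fold higher and 0 lower. Without the cluster the summed members were 10736 CPM (log2 0.50, 0.47 to 0.53), of which Hmgb2 made up 3047 CPM. There 7 members were over 2-fold higher and 1 lower, where 12.9% of all genes were higher and 13% lower (median 0.37). The share of members higher was thus close to that of all genes. Those 7 were Nusap1 at 182 against 72.1 CPM (1.34, 1.04 to 1.65), Mki67 at 365 against 155 CPM (1.23, 1.03 to 1.44), Ndc80 at 62.4 against 27.5 CPM (1.18), and Kif11, Ckap2, Anln and Hmgb2. Psrc1 was lower at 4.51 against 9.83 CPM (-1.12, -2.32 to 0.05), and Cks2 was at 301 against 425 CPM (-0.50, -0.65 to -0.35). Against ILC2 barcodes the sum was at log2 -0.16 with the cluster and 0.11 without it, and 1 member was over 2-fold higher and 0 lower with it (5.94% and 8.01% of all genes). Without it 2 were higher and 0 lower (6.25% and 5.47% of all genes), Anln at 26.4 against 8.49 CPM (1.63, 0.75 to 2.65) and Ckap2 at 31.6 against 14.9 CPM (1.09, 0.39 to 1.85). With those of 2 or more keratin UMIs included, the cluster had 446 barcodes at depth. They were narrow in their member UMIs, with a median of 44 and a 10th to 90th percentile of 36 to 53, and 87 of the 446 had 20 or more members.

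The level of a gate mixes how many barcodes hold member UMIs with how many each holds, so both sides of the line at 20 members were compared, without the keratin cluster. The line is set on the members' own UMIs, so the values on either side are a description from which nothing is read, and no other line was run for them. At 20 or more members the median barcode of suffix 2 held 85 member UMIs in progenitor, 106 in DN2/DN3, 118 in NK/ILC1, 139 in ILC2 and 148.5 in gamma-delta T barcodes, the last from 26 barcodes. In suffix 1 the medians were 74 in progenitor, 80.5 in DN2/DN3, 114 in ILC2 and 117 in NK/ILC1 barcodes. Progenitor barcodes were the lowest in both suffixes. Below the line the medians of suffix 2 were 18 in progenitor and DN2/DN3, 16 in gamma-delta T, 10 in ILC2 and 9 in NK/ILC1 barcodes.

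The line was drawn on the members and not on the other genes, so the shares of all genes given here are no like comparison. Among suffix 2 barcodes with 20 or more members, ILC2 over progenitor had 7 of 51 members over 2-fold higher and 1 lower. There 13.1% of all genes were higher, a share close to that of the members, and 13.7% lower. The median member log2 ratio was 0.56. Ndc80 was at 126 against 50.8 CPM (1.31, 0.88 to 1.77), Mki67 at 796 against 340 CPM (1.23, 1.06 to 1.40), Kif23 at 167 against 75.7 CPM (1.14) and Birc5 at 907 against 415 CPM (1.13). Tubb4b was level at 949 against 976 CPM (-0.04, -0.16 to 0.08) and Psrc1 lower at 10.3 against 23.2 CPM (-1.18). Below the line, of 44 members with enough UMIs 1 was over 2-fold higher and 26 lower, where 13.2% of all genes were higher and 16.9% lower (median -1.28). Cks1b was there at 53.8 against 188 CPM, Tubb4b at 101 against 307 CPM and Cbx5 at 49.7 against 145 CPM, while Hmgb2 was at 830 against 918 CPM and Ctcf at 147 against 158 CPM. NK/ILC1 over progenitor had 4 members over 2-fold higher and 0 lower at 20 or more members, where 13.2% of all genes were higher and 14.3% lower (median 0.39). Below the line it had 0 higher and 19 lower of 43, where 13.8% and 18.3% of all genes were (median -0.88). For DN2/DN3 over progenitor the medians were 0.39 at 20 or more members and -0.02 below.

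How far each member moved with the others was read by ranking barcodes within each gate on the other 50 members and comparing the top-ranked with the bottom-ranked barcodes, 335 each in suffix 1 and 657 each in suffix 2, without the keratin cluster. In suffix 1 48 of 51 members were over 2-fold higher in the top group and 0 lower, against 3.5% and 2.42% of genes outside the list. In suffix 2 50 of 51 were higher and 0 lower, against 5.29% and 3.19% of other genes. The median member log2 ratio was 3.34 in suffix 1 and 4.82 in suffix 2. Cdk1 was at 368 against 53.7 CPM in suffix 1 (log2 2.78, 2.50 to 3.06) and 271 against 9.57 CPM in suffix 2 (4.82, 4.39 to 5.29). Cyclin A2, Ccna2, was at 255 against 20.5 CPM (3.64) and 180 against 1.74 CPM (6.70). Hmmr, a spindle protein, was at 260 against 2.56 CPM (6.67, 5.54 to 8.12) and 197 against 1.09 CPM (7.50, 6.27 to 9.13), and Nusap1 at 307 against 3.84 CPM (6.32) and 259 against 0.870 CPM (8.22). Plk1, with 2 and 4 UMIs in the bottom groups, had log2 ratios of 7.29 (5.43 to 10.3) and 6.50 (5.13 to 8.38).

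Cdc25c and Nek2 had 0 UMIs in the bottom group of suffix 2. With that 0 set at 3 UMIs they were 28.3-fold and 29.3-fold higher in the top group (log2 lower bounds 4.49 and 4.55). Gtse1 had 0 in suffix 1, and its top group was 14.3-fold higher on the same setting (log2 lower bound 3.48). A UMI of Plk1 was present in 0.597% and 0.609% of bottom-ranked barcodes, against 62.1% and 35.9% of top-ranked barcodes. A low level in the bottom group was not general. Hmgb2 remained at 934 and 500 CPM there with a UMI in 93.1% and 92.4% of barcodes, and its fold was 4.2 and 7.70. The 4 values under 2-fold were Cbx5 (1.32), Ctcf (1.69) and Lbr (1.92) in suffix 1 and Ctcf (1.53) in suffix 2. Ctcf, the insulator protein that shapes chromatin loops, was at 233 against 138 CPM and 234 against 153 CPM. Cbx5 and Lbr, the lamin B receptor, were at 2.61-fold and 2.17-fold in suffix 2. These 3 members act on chromatin in interphase as well. Of the other G2/M list 44 of 51 genes in suffix 1 and 49 of 51 in suffix 2 were over 2-fold higher in the top group. S phase genes were over 2-fold higher in 1 of 46 and lower in 7 in suffix 1 (median -0.41), but higher in 33 and lower in 0 in suffix 2 (median 1.21). Raw UMIs differed between the groups too, for example 19235 against 10562 in the suffix 2 ILC2 gate, and the thinning removed that difference from the totals only.

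**Figure D4:**
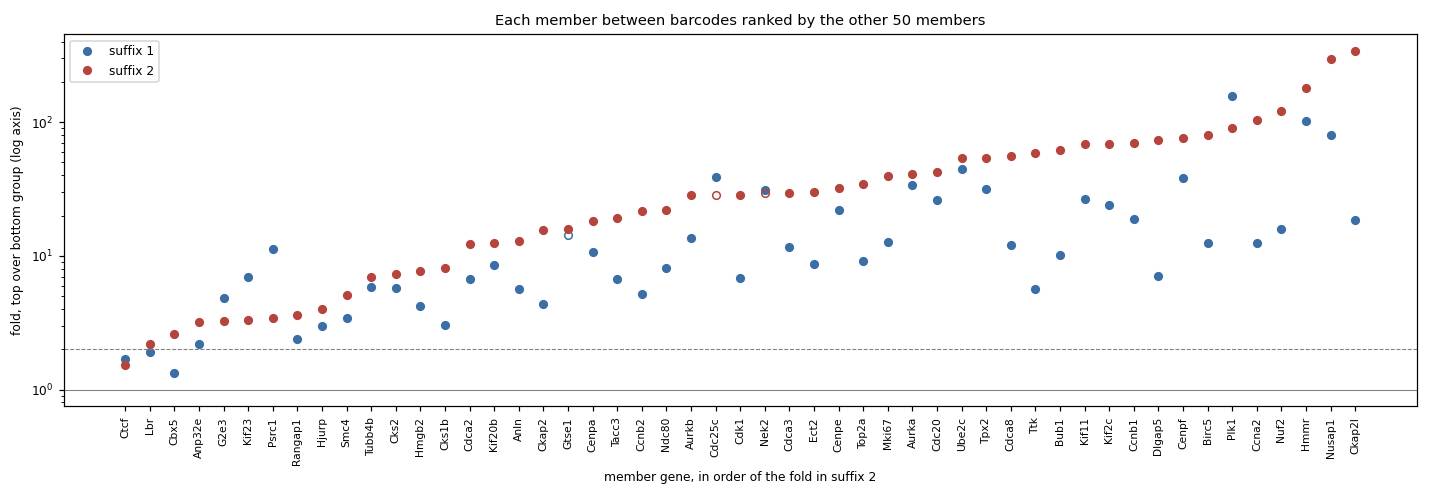
Fold between the top-ranked and bottom-ranked barcodes by the other 50 members (y axis, log axis) for each member (x axis, in order of suffix 2), suffix 1 in blue and suffix 2 in red, with open circles for folds against a floor of 3 UMIs and 2-fold dashed. Ctcf, Lbr and Cbx5 sit at the low end, from 1.32 to 2.61, and most members of suffix 2 lie above 10.

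Within barcodes of 20 or more members, the members did not all go together with S phase genes. These barcodes were picked on the members' own UMIs and not on those of other genes. The values of other genes given beside the members are thus no like comparison. Barcodes with 20 or more members were divided within each gate into an S-high and an S-low group by S phase UMIs, with 271 barcodes in each in suffix 1, of which 1 in each was a gamma-delta T barcode, and 269 in suffix 2. The S-high group had a median of 42 and 39 S phase UMIs and the S-low group 20 and 14. In the S-high group 0 of 51 members were over 2-fold higher in either suffix, and 9 were lower in suffix 1 and 8 in suffix 2, against 1.67% higher and 2.07% lower of other genes in suffix 1 and 2.31% and 2.35% in suffix 2. The 8 of suffix 2 were Ccnb1, Ccnb2, Cdc20, Ube2c, Cenpa, Cenpf, Ckap2 and Psrc1, and suffix 1 had these 8 and Nek2. Cenpa, the histone H3 variant of centromeres, was at 214 against 561 CPM in suffix 1 (log2 -1.39, -1.56 to -1.22) and 241 against 754 CPM in suffix 2 (-1.65, -1.80 to -1.49). Cdc20 was at 128 against 358 CPM (-1.48) and 130 against 391 CPM (-1.59), and Ccnb1 at 105 against 237 CPM (-1.17) and 97.2 against 270 CPM (-1.48).

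Most members were lower in the S-high group, 39 of 51 in suffix 1 and 37 in suffix 2, and 11 and 14 were higher. The median member log2 ratio was -0.38 and -0.32, against -0.01 and -0.03 for other genes. Short of 2-fold, Hmmr was at log2 -0.88 and -0.92 and Plk1 at -0.59 and -0.75. Some members were level between these groups or higher in the S-high group. Mki67 was at 449 against 442 CPM (0.02, -0.12 to 0.16) in suffix 1 and 584 against 607 CPM (-0.06, -0.18 to 0.06) in suffix 2. Top2a was at 567 against 549 CPM (0.04) and 895 against 698 CPM (0.36, 0.25 to 0.46), Aurkb at 155 against 140 CPM (0.15) and 160 against 122 CPM (0.39, 0.14 to 0.64) and Cbx5 at 204 against 168 CPM (0.28) and 228 against 151 CPM (0.60, 0.38 to 0.82). Ccna2 had ratios of -0.16 and -0.05 and Cdk1 of -0.34 and -0.13, closer to 0 than those of cyclin B1. As background, transcripts of Top2a and Ccna2 are known to appear earlier in the cycle than those of Cdc20 and Ccnb1. Member UMIs per barcode also differed between these groups, with medians of 75 against 114 in suffix 1 and 91 against 124 in suffix 2, and raw UMIs were close at 23228 against 23081 and 24845 against 24163.

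**Figure D5:**
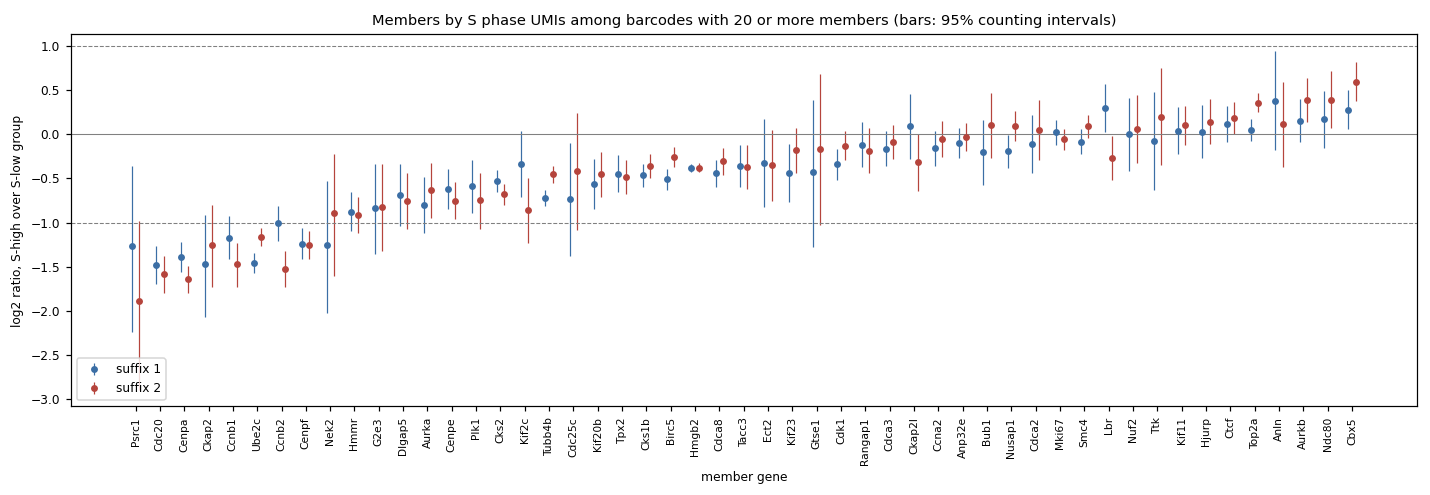
Log2 ratio of each member between the S-high and S-low groups of barcodes with 20 or more members (y axis), suffix 1 in blue and suffix 2 in red, bars as 95% counting intervals and 2-fold dashed, members on the x axis. Psrc1, Cdc20, Cenpa, Ckap2, Ccnb1, Ube2c, Ccnb2 and Cenpf lie below -1 in both suffixes and Top2a, Aurkb, Ndc80 and Cbx5 lie at or above 0.

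Genes outside the list that tracked the summed members most closely were ranked by Pearson r across barcodes centred per gate, over 1014 barcodes of suffix 1 (4 of them gamma-delta T) and 1977 of suffix 2 and 7580 genes, as a description in which the points share library and depth. The 10 with the highest mean r were Tubb5 (0.73), H2afz (0.72), Stmn1 (0.71), Tuba1b (0.69), H2afx (0.69), Ube2s (0.67), Hmgb1 (0.65), Pclaf (0.65), Ptma (0.64) and Spc24 (0.63). Tubb5, H2afz, Stmn1, Tuba1b, H2afx and Spc24 are in the separate G2/M list. Tubb5 and Tuba1b are tubulins and Stmn1 is the microtubule regulator stathmin, H2afz and H2afx are histone H2A variants, and Spc24 is a partner of Ndc80 and Nuf2 in the kinetochore.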

How the data were processed

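Each value is a count of UMIs for 1 gene in 1 barcode, as deposited. Per the submitters' processing notes, the authors used Cell Ranger 3.0.2 with STAR and genome GRCm38. How cells were called is not given in the sources used here. T-cell receptor chain genes were not analysed here. Members and lists were chosen with earlier results of these data known. Of the columns, 0 are tied to a library by a label.

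Filters kept barcodes with at least 500 genes and at most 10% mitochondrial UMIs, removing 35 in suffix 1 and 507 in suffix 2. Also removed were Scrublet calls per suffix (10 and 96, or 0.466% and 2.85% of those that passed, so doublets in suffix 1 may remain) and barcodes with 2 or more UMIs of Krt8 and Krt18 (221 and 48). Kept barcodes held 35578354 and 57554277 UMIs, with medians of 14743.5 and 13500.5. Clusters came from Leiden clustering at resolution 1 on 30 components of 2000 variable genes without cell cycle genes (scanpy 1.11.5, leidenalg 0.10.2). A barcode passing several gates went to the gate with the highest smaller count, and ties were left out. Counts were thinned to 7000 UMIs per barcode (seed 20), leaving out shallower barcodes, and summed per gate. Levels have exact Poisson intervals, ratios conditional exact intervals and shares Clopper-Pearson intervals at 95%. A count of 0 was set at 3 UMIs in ratios. The functions were tested on simulated data. Named are the 4 most abundant members, Cdk1, Ccnb1, Plk1, Cdc20, Top2a, Mki67, Aurkb, Cks1b and Cks2, the 3 highest and 3 lowest members of each comparison, and the 10 genes most like the members. Members named beyond that in the comparisons by member ranking, by S phase UMIs and on either side of the line at 20 members were chosen after their values were seen. Alternatives changed the gate minimum, the treatment of barcodes passing several gates, the filters, doublets, keratin barcodes, depth, seed, the line at 20 members, the scaling and the minimum of 20 UMIs. Leaving out the keratin cluster, gates on thinned UMIs and leaving out shared barcode sequences were added after the data were seen.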

Additional observations from a re-analysis of the deposited data

Results flagged for a closer look

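NK/ILC1 over progenitor had a summed member log2 ratio of 0.24 in suffix 1 and -0.19 in suffix 2, opposite directions whose difference was not tested, since each suffix is 1 library. The suffix 1 value was 0.50 without the keratin cluster, and the suffix 2 value turned to 0.11 at 10000 UMIs and 0.016 with gates on thinned UMIs, so the opposition did not hold in those 2 settings. Barcodes in no gate, which no comparison used, had 20 or more members in 45.1% of suffix 1 (40.0 to 50.3, 375 barcodes) and 17.6% of suffix 2 (15.1 to 20.2, 917 barcodes). The suffix 1 keratin cluster held a median of 44 member UMIs per barcode.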

How the results depend on the processing

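Members were compared in single libraries, so no spread between animals is known, and depth limits the rare members most: Cdc25c, Nek2, Psrc1 and Gtse1 had wide intervals. Of the alternatives to the shares at 20 or more members, 100 stayed within their counting interval and 34 moved. At 4000 UMIs fewer members are detected by construction, and the shares were 30.7% in progenitor, 36.5% in ILC2, 24.2% in NK/ILC1 and 33.3% in DN2/DN3 barcodes of suffix 1 and 19.1%, 19.9%, 14% and 35.7% in those of suffix 2. At 10000 UMIs they were 62.2%, 64.1%, 64.5% and 70.1% in suffix 1, and 39.9% in progenitor, 33.6% in ILC2 and 31.4% in NK/ILC1 barcodes of suffix 2. With the line at 15 members they were 67.4%, 61.9%, 72.3% and 78.2% in suffix 1, and 44.3% in progenitor and 27.6% in ILC2 barcodes of suffix 2. With the line at 25 members they were 35.8%, 38.1%, 28.1% and 36.9% in suffix 1, and 21.4% in progenitor, 15.9% in NK/ILC1 and 39.4% in DN2/DN3 barcodes of suffix 2. Gate genes at 3 raw UMIs gave 27.5% in suffix 2 ILC2 barcodes, leaving out the keratin cluster gave 54.9% in suffix 1 NK/ILC1 barcodes, and gates on thinned UMIs gave 37.3% in suffix 1 ILC2, 15.2% in suffix 2 ILC2, 25.6% in gamma-delta T and 21.3% in suffix 2 progenitor barcodes.

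Counts of members past 2-fold stayed within 1.5 times in 106 alternatives and moved in 26, and the cause was not tested. For DN2/DN3 over progenitor the suffix 1 count of 0 became 1 at 4000 UMIs and 1 with gate genes at 1 raw UMI, and the suffix 2 count of 15 became 9 with gate genes at 3 raw UMIs, 27 with barcodes of several gates left out and 7 with unthinned sums. For gamma-delta T over progenitor the count of 19 became 10 with gate genes at 3 raw UMIs and 6 with gates on thinned UMIs, and for suffix 2 ILC2 over progenitor the count of 3 became 5 at 10000 UMIs. For suffix 1 NK/ILC1 over progenitor the count of 0 became 1 with gate genes at 3 raw UMIs, with barcodes of several gates left out, at 10000 UMIs and with another seed, and 8 without the keratin cluster. For suffix 1 NK/ILC1 over ILC2 the count of 1 became 0 with gate genes at 1 raw UMI, unthinned sums, 10000 UMIs, another seed, keratin barcodes kept and shared barcode sequences left out, 2 with barcodes of several gates or the keratin cluster left out, and 3 with gates on thinned UMIs. For suffix 2 NK/ILC1 over ILC2 the count of 1 became 0 with gate genes at 1 raw UMI, unthinned sums and 10000 UMIs, and 3 with gate genes at 3 raw UMIs.

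Summed ratios stayed within their counting interval in 75 alternatives, moved past it with their direction kept in 41, and turned in direction in 7. ILC2 over progenitor in suffix 2 was -0.018 with gate genes at 1 raw UMI and -0.16 with gates on thinned UMIs. NK/ILC1 over progenitor in suffix 2 was 0.11 at 10000 UMIs and 0.016 with gates on thinned UMIs. NK/ILC1 over ILC2 was 0.11 without the keratin cluster and 0.043 with gates on thinned UMIs in suffix 1, and 0.18 with gates on thinned UMIs in suffix 2. The Nek2 ratio of suffix 2 NK/ILC1 over ILC2 was 0.80 at 4000 UMIs. The sums of gamma-delta T (0.37 to 0.84) and DN2/DN3 (0.70 to 0.97) over progenitor in suffix 2 and of ILC2 over progenitor in suffix 1 (0.29 to 0.50) stayed above 0 in each alternative run. No paired analysis was possible because each stage has 1 library and no column is tied to a library.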
